A study of Mus musculus with 16 samples.

Results

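The 10 genes described here are the cytokine gene Tnf, the interleukin-1 gene Il1b and its antagonist gene Il1rn, the prostaglandin synthase gene Ptgs2, the receptor genes Cd14 and Tlr2, the NF-kB subunit gene Nfkb1, and the inhibitor and feedback genes Nfkbia, Nfkbiz and Tnfaip3. They were chosen with earlier results of these data known. Rows were picked by gene symbol, and each symbol matched 1 of the 54532 gene rows of the deposited count table. RNA was sequenced from bone marrow macrophages of wild-type C57BL/6 mice aged 2 to 3 months, grown from tibial marrow in 15% serum with CSF-1, the growth factor that turns marrow precursors into macrophages, at 12 ng/ml for 24 h and at 120 ng/ml for 48 h. A single passage then took them to plain dishes or to dishes that had held 10 µg/ml fibronectin overnight, and confluent cells received antibody at 10 µg/ml for 24 h. The 4 groups, with 4 libraries each, were fibronectin with a neutralizing antibody against ITGAV (integrin alpha V), fibronectin with IgG, uncoated with anti-ITGAV, and uncoated with IgG. All 16 libraries therefore came from cells that had met serum, CSF-1 and an antibody. Neither the number of mice nor separate cultures behind the libraries are stated, and p-values therefore cover no more than the spread between libraries, which may be technical.

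Fibronectin is an extracellular matrix protein to which several integrins bind, those with an alpha V chain among them. In macrophages, ligands of Toll-like receptors and the cytokines TNF and IL-1 lead to degradation of IkB proteins and release of NF-kB dimers into the nucleus. NF-kB then switches on cytokine genes and, with them, genes for its own inhibitors, among them IkB-alpha (Nfkbia) and the ubiquitin-editing enzyme A20 (Tnfaip3), which end the response. Il1rn encodes the antagonist that occupies the IL-1 receptor without signalling.

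Promoters from RefSeq on GRCm38.p6, the build of the files, were searched for 7 of the 10 genes. Nfkb1 and Nfkbiz had no entry in the promoter set used, and Cd14 was left out of the search. Those of the genes that differed between coatings are shown, with those of a pair of NF-kB pathway genes that did not pass the test. Each of the first 3 sequences below holds the 250 bases before a RefSeq transcript start, read 5′ to 3′ on the gene's strand. Capitals mark matches, on either strand, to the TATA box TATAAA, to the AP-1 motif TGANTCA or to the 10-letter kB consensus motif. The last pair are stretches cut from longer promoters, with the same marks.
Tnf, minus strand, chr17:35202008-35202257: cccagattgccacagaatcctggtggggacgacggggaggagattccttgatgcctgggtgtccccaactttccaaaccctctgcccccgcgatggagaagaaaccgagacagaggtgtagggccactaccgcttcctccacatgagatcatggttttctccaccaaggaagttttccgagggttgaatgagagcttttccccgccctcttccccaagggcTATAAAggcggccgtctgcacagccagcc
Il1rn, plus strand, chr2:24336610-24336859: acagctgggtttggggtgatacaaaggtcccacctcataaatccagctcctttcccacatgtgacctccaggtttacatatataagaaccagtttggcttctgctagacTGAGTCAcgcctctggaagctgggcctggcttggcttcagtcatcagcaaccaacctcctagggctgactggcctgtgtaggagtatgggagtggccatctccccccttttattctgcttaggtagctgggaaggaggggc
Nfkbia, minus strand, chr12:55492648-55492897: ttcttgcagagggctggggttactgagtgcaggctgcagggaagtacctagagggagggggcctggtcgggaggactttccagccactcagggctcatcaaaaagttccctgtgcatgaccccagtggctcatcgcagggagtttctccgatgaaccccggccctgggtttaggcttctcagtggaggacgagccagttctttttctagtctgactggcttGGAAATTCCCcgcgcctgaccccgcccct
Tnfaip3, minus strand, chr10:19015526-19015546: TGACTCAcgcgGGGACACCCC
Tlr2, minus strand, chr3:83841771-83841781: GGGGAATTCCC
In the Tnf window the TATA box began 29 bases before the start. In the Il1rn window the AP-1 match began 141 bases before it, and in the Nfkbia window the kB match began 29 bases before it. The Tnfaip3 stretch, from 136 to 116 bases before the RefSeq start, held an AP-1 match followed by a kB match. The Tlr2 stretch, from 173 to 163 bases before its RefSeq start, held 2 overlapping kB matches. These RefSeq starts lay inside the genes as deposited, 247 bases from the 5′ end for Tnfaip3 and 159 for Tlr2. The Tnfaip3 stretch was therefore within the deposited gene, and the Tlr2 stretch just outside it. The 7 genes had 10 windows in all. The kB motif was found in windows of 3 of the 7 genes (Tlr2, Tnfaip3 and Nfkbia), where a match in any window of a gene counted. It was found in 3.9% of the 32851 RefSeq promoters of this length, a share counted by window and not by gene. AP-1 matches were found in 6.75% of those promoters and TATA boxes in 12.4%. A match describes letters only. Of the genes holding a kB match, Tnfaip3 differed between coatings, and Nfkbia and Tlr2 did not pass the test. The Tnfaip3 window with the printed stretch held another kB match outside that stretch. The printed Tnf and Il1rn windows held no match to this motif. Il1rn and Tnfaip3 also have RefSeq starts further inside the gene. These lie 8438 and 8518 bases from the deposited 5′ end for Il1rn and 3694 for Tnfaip3. Their windows held no match to any of the motifs, and which start these cells used was not tested. Bases outside the 250-base windows were not searched, and any bearing of the matches on levels was not tested.

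Libraries held 27995000 to 43413600 counts in genes. All 12 macrophage markers were detected in every group, and their summed level was 31580 to 38144 CPM (counts per 1000000 counts of the scaled library) on fibronectin with anti-ITGAV, 30234 to 37944 CPM on fibronectin with IgG, 31556 to 37211 CPM on uncoated dishes with anti-ITGAV and 32029 to 35464 CPM on uncoated dishes with IgG. Library 3 of fibronectin with anti-ITGAV stood apart: its share of mitochondrial transcripts was 3.67%, against 1.30% to 1.60% elsewhere, and its rank correlation between gene GC content and deviation from the mean level was -0.70 against -0.30 to 0.55 in the other 15. Values with and without it are given below. A count of 0 allowed up to 0.0691 to 0.107 CPM, depending on the library, for counting error only.

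On fibronectin, macrophages carried more mRNA of Tnf, Il1rn and Tnfaip3 than on uncoated dishes, with either antibody present. The other 7 genes did not pass the test in either coating comparison. Under anti-ITGAV the rise was 1.75-fold for Tnf, 1.97-fold for Il1rn and 1.53-fold for Tnfaip3, and under IgG it was 2.40-fold, 1.83-fold and 1.54-fold in the same order. Under anti-ITGAV, 3 of the 10 genes rose at a 5% false discovery rate in edgeR's quasi-likelihood test, against 2.84% of the 15469 genes tested, and none fell, against 2.83%. Under IgG the same 3 rose, against 2.37% of all genes tested, and none fell, against 1.42%. Because the 10 genes and the lists were chosen with earlier results known, counts set beside all genes, here and below, are descriptive only. All 10 genes passed the filter on low counts. Since the RNA is from bulk cultures, more RNA per cell cannot be told apart from more cells of a kind that carries it.

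**Figure D1:**
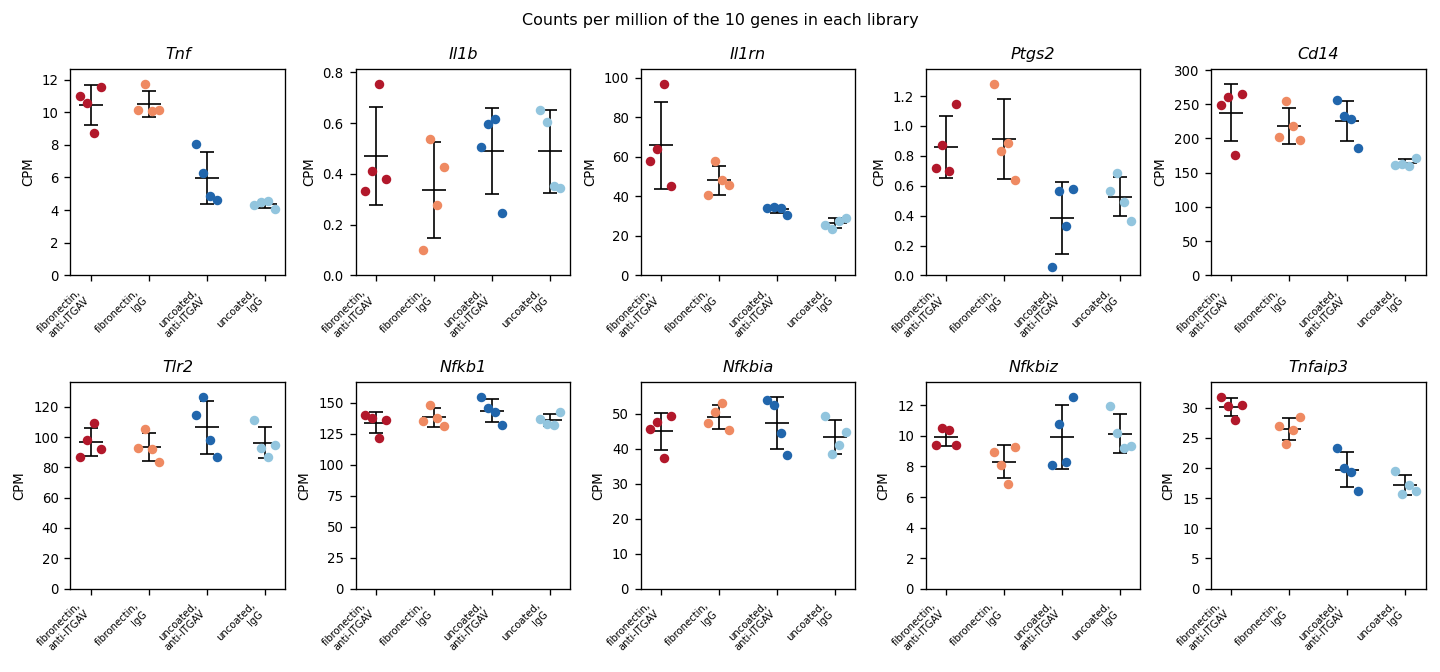
Levels of the 10 genes in CPM (y axis, from 0) in each of the 16 libraries, by group. Each point is a library, and bars give the group mean and SD (n = 4). The fibronectin libraries of Tnf, Il1rn and Tnfaip3 all lie above the uncoated ones, while the Tlr2, Nfkb1 and Nfkbia groups overlap.

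Tnf (ENSMUSG00000024401, chromosome 17, 35199381 to 35202007, minus strand) encodes the pro-inflammatory cytokine TNF. Its level was 11.0, 10.5, 8.75 and 11.5 CPM on fibronectin with anti-ITGAV and 10.1, 11.7, 10.1 and 10.1 CPM on fibronectin with IgG. On uncoated dishes it was 8.07, 6.29, 4.87 and 4.63 CPM with anti-ITGAV, against 4.33, 4.52, 4.59 and 4.06 CPM with IgG. No fibronectin library overlapped an uncoated one, and within the uncoated dishes the anti-ITGAV libraries all lay above the IgG ones. The log2 fold change for fibronectin over uncoated was 0.81 ± 0.16 (SE; edgeR adjusted p = 0.00631) under anti-ITGAV and 1.26 ± 0.16 (edgeR adjusted p = 0.000256) under IgG. Averaged over both antibodies it was 1.04 ± 0.11, a 2.05-fold difference (edgeR adjusted p = 1.36e-05). The value under anti-ITGAV had an adjusted p of 0.0669 when only the libraries of that comparison were fitted, and stayed below 0.05 in 27 of 28 alternatives. The difference between the coating effects under the antibodies, -0.45 ± 0.22 on the log2 scale, did not pass the test (edgeR adjusted p = 0.646).

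Il1b (ENSMUSG00000027398, chromosome 2, 129364570 to 129371139, minus strand), the gene for IL-1 beta, was close to the detection limit, with 3 to 28 counts per library. Its level averaged 0.469 ± 0.192 CPM on fibronectin with anti-ITGAV, 0.336 ± 0.189 CPM on fibronectin with IgG, 0.491 ± 0.170 CPM on uncoated dishes with anti-ITGAV and 0.489 ± 0.163 CPM on uncoated dishes with IgG (SD, n = 4 each). The groups overlapped throughout. At these counts the 95% interval of the log2 fold change for fibronectin over uncoated ran from -1.03 to 0.91 under anti-ITGAV and from -1.53 to 0.47 under IgG. An antisense gene, Il1bos, overlaps Il1b and had 8 counts over all libraries. The strand setting of the counting is not given in the sources used here.

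Il1rn (ENSMUSG00000026981, chromosome 2, 24336853 to 24351494, plus strand) encodes the IL-1 receptor antagonist. Its level was 57.7, 63.9, 96.7 and 45.3 CPM on fibronectin with anti-ITGAV and 40.5, 58.0, 48.5 and 45.8 CPM on fibronectin with IgG. On uncoated dishes it was 34.0, 34.85, 34.2 and 30.8 CPM with anti-ITGAV, against 25.4, 23.4, 27.7 and 29.0 CPM with IgG. All fibronectin libraries lay above all uncoated ones, and the highest value was that of the library with the high mitochondrial share. The log2 fold change was 0.98 ± 0.17 under anti-ITGAV (edgeR adjusted p = 0.00352) and 0.87 ± 0.17 under IgG (edgeR adjusted p = 0.00859). Without library 3 of fibronectin with anti-ITGAV the log2 fold change under anti-ITGAV was 0.73 (edgeR adjusted p = 0.0016). With an offset for gene GC content in each library it was 0.67, and its edgeR adjusted p of 0.0726 missed the threshold. Without library 2 of uncoated dishes with IgG, the change under IgG had an edgeR adjusted p of 0.054. Averaged over both antibodies the log2 fold change was 0.92 ± 0.12, or 1.90-fold (edgeR adjusted p = 0.000101).

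Ptgs2 (ENSMUSG00000032487, chromosome 1, 150100031 to 150108227, plus strand), the gene for the inducible cyclooxygenase COX-2, was also rare, with 2 to 38 counts per library. Its level was 0.720, 0.873, 0.700 and 1.14 CPM on fibronectin with anti-ITGAV and 1.28, 0.835, 0.888 and 0.640 CPM on fibronectin with IgG. On uncoated dishes it was 0.0596, 0.566, 0.333 and 0.576 CPM with anti-ITGAV, against 0.564, 0.683, 0.494 and 0.367 CPM with IgG. Under anti-ITGAV the fibronectin libraries all lay above the uncoated ones, and under IgG the groups overlapped in a single pair of libraries. The log2 fold change averaged over both antibodies was 0.97 ± 0.31, with an edgeR adjusted p of 0.055 that just missed the threshold. It passed in 6 of 24 alternatives, with adjusted p = 0.0474 without library 1 and 0.043 without library 4 of uncoated dishes with anti-ITGAV, and 0.0478 without library 3 of fibronectin with anti-ITGAV.

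Cd14 (ENSMUSG00000051439, chromosome 18, 36725074 to 36726736, minus strand) encodes the co-receptor that hands endotoxin to Tlr4. Its level was 249, 261, 176 and 265 CPM on fibronectin with anti-ITGAV and 202, 255, 219 and 197 CPM on fibronectin with IgG. On uncoated dishes it was 256, 233, 228 and 186 CPM with anti-ITGAV, against 161, 163, 159.6 and 172 CPM with IgG. The uncoated IgG libraries lay below every other library, and the lowest value outside that group was again library 3 of fibronectin with anti-ITGAV. Relative to uncoated dishes with IgG, the log2 fold change was 0.41 ± 0.13 for fibronectin with IgG (edgeR adjusted p = 0.081) and 0.46 ± 0.13 for anti-ITGAV on uncoated dishes (edgeR adjusted p = 0.757, unadjusted p = 0.00191 in the same test). Under anti-ITGAV the coating made a log2 difference of 0.07 ± 0.13 (edgeR adjusted p = 0.759). Without library 3 of fibronectin with anti-ITGAV, which also enters the estimate of spread, the coating change under IgG passed with an edgeR adjusted p of 0.00752 at the same log2 value of 0.41, while the share of all genes called rose to 8.4%, against 3.79% with it. It passed in 5 of 28 alternatives in all. Without that library the antibody effect averaged over both coatings, 0.35 on the log2 scale, had an edgeR adjusted p of 0.0415, against 0.29 ± 0.09 and an adjusted p of 0.778 with it. The share of all genes called in that comparison was 0.14% without the library. With the library kept and an offset for gene GC content, added after seeing the data, this antibody effect on Cd14 was 0.30. Its edgeR adjusted p was then 0.0191, with 0.278% of all genes called.

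Tlr2 (ENSMUSG00000027995, chromosome 3, 83836272 to 83841767, minus strand) encodes a receptor for bacterial lipopeptides. Its level averaged 96.7 ± 9.51 CPM on fibronectin with anti-ITGAV, 93.4 ± 9.09 CPM on fibronectin with IgG, 106 ± 17.4 CPM on uncoated dishes with anti-ITGAV and 96.3 ± 10.4 CPM on uncoated dishes with IgG (SD, n = 4 each). All groups overlapped. The log2 fold change for coating averaged over both antibodies was -0.09, with a 95% interval from -0.27 to 0.09.

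Nfkb1 (ENSMUSG00000028163, chromosome 3, 135584655 to 135691547, minus strand) encodes the precursor p105, from which the p50 subunit is made. It was the steadiest of the 10 genes, with a pooled within-group coefficient of variation of 5.37% against 9.22% to 41.3% for the others. Its level averaged 134 ± 8.46 CPM on fibronectin with anti-ITGAV, 138 ± 7.30 CPM on fibronectin with IgG, 144 ± 9.25 CPM on uncoated dishes with anti-ITGAV and 136 ± 4.71 CPM on uncoated dishes with IgG (SD, n = 4 each). The averaged coating change was -0.04 on the log2 scale, with a 95% interval from -0.16 to 0.07. Another annotated gene on the same strand, Gm43430, overlaps it and had 300.0 counts in all, against 76658 for Nfkb1.

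Nfkbia (ENSMUSG00000021025, chromosome 12, 55489410 to 55492647, minus strand), the gene for IkB-alpha, averaged 44.96 ± 5.32 CPM on fibronectin with anti-ITGAV, 49.0 ± 3.36 CPM on fibronectin with IgG, 47.2 ± 7.39 CPM on uncoated dishes with anti-ITGAV and 43.3 ± 4.76 CPM on uncoated dishes with IgG (SD, n = 4 each). The groups overlapped in every comparison. The averaged coating change was 0.05 on the log2 scale (95% interval -0.13 to 0.23), so a rise of the size seen for Tnfaip3 lay outside the interval.

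Nfkbiz (ENSMUSG00000035356, chromosome 16, 55811375 to 55838899, minus strand) encodes IkB-zeta, a nuclear IkB protein needed for a subset of late NF-kB target genes. Its level was 9.38, 10.5, 10.4 and 9.43 CPM on fibronectin with anti-ITGAV and 8.96, 8.11, 6.85 and 9.27 CPM on fibronectin with IgG. On uncoated dishes it averaged 9.93 ± 2.11 CPM with anti-ITGAV, against 10.2 ± 1.28 CPM with IgG (SD, n = 4 each). On fibronectin the anti-ITGAV libraries lay just above the IgG ones without overlap, by 0.26 ± 0.15 on the log2 scale (edgeR adjusted p = 0.721). Under IgG its log2 coating change, -0.29 ± 0.15 (edgeR adjusted p = 0.38), had the opposite sign to those of Tnf, Il1rn and Tnfaip3.

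Tnfaip3 (ENSMUSG00000019850, chromosome 10, 19000910 to 19015657, minus strand), the gene for A20, had 31.7, 30.3, 27.96 and 30.4 CPM on fibronectin with anti-ITGAV and 27.0, 24.0, 26.2 and 28.4 CPM on fibronectin with IgG. On uncoated dishes it had 23.3, 20.02, 19.3 and 16.2 CPM with anti-ITGAV, against 19.5, 15.7, 17.2 and 16.1 CPM with IgG. Again the lowest fibronectin library was above the highest uncoated one. The log2 fold change was 0.61 ± 0.11 under anti-ITGAV (edgeR adjusted p = 0.00421) and 0.62 ± 0.11 under IgG (edgeR adjusted p = 0.004). Both passed in 28 of 28 alternatives. The coating effects under the antibodies differed by -0.01 ± 0.16 on the log2 scale, with a 95% interval from -0.34 to 0.32.

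**Figure D2:**
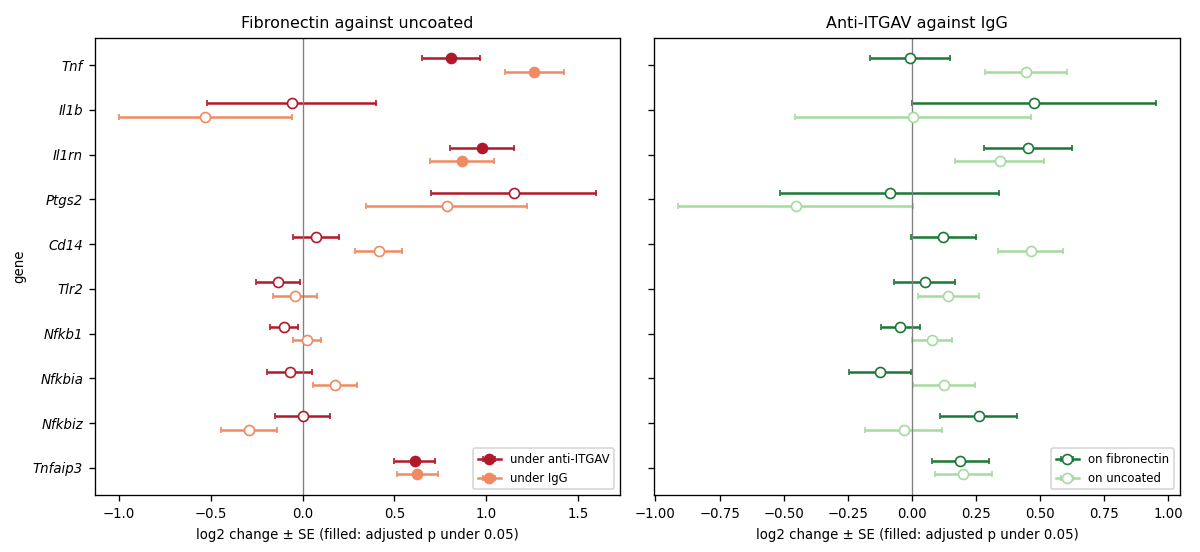
Log2 fold change (x axis) of each of the 10 genes for fibronectin over uncoated (left) and for anti-ITGAV over IgG (right), with bars for 1 SE. Filled points have an edgeR adjusted p under 0.05: these are Tnf, Il1rn and Tnfaip3 for the coating under both antibodies, and no gene for the antibody.

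With the antibodies averaged, the same 3 genes rose on fibronectin, against 6.58% of the genes tested, and no member fell, against 5.26%. These calls held in 27 of 27 alternatives. Over the 10 genes the median log2 fold change was 0.15, against 0.0036 over all genes. Under anti-ITGAV the medians were 0.04 and 0.0078, and under IgG 0.30 and 0.0020. Libraries of the coatings did not overlap for 4 of the 10 genes under anti-ITGAV (Tnf, Il1rn, Ptgs2 and Tnfaip3), against 14.1% of all genes tested. Under IgG they did not overlap for 4 genes (Tnf, Il1rn, Cd14 and Tnfaip3), against 13.1%. Without library 3 of fibronectin with anti-ITGAV, 5 of the 10 genes rose with the antibodies averaged, the further ones being Ptgs2 (1.01 on the log2 scale, edgeR adjusted p = 0.0478) and Cd14 (0.30, edgeR adjusted p = 0.00383). Of all genes, 8.91% rose without it. Under anti-ITGAV 3 of the 10 genes then rose, against 3.04% of all genes, and under IgG 4 rose, against 5.5%.

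For anti-ITGAV over IgG, none of the 10 genes passed edgeR's quasi-likelihood test on fibronectin or on uncoated dishes, against 0.0129% of all genes tested in each case. At an unadjusted p under 0.05 in the same test there was 1 member on fibronectin (Il1rn, log2 fold change 0.45 ± 0.17), against 4.65% of all genes. On uncoated dishes there were 2, Tnf (0.45 ± 0.16) and Cd14, against 3.04%. DESeq2 also called 0 members in both comparisons, with 18 of all genes called on fibronectin and 28 on uncoated dishes. The limma-voom fit with quality weights called 1 member on uncoated dishes, Cd14 (adjusted p = 0.00122), with 0.705% of all genes called. Libraries with anti-ITGAV and with IgG on uncoated dishes did not overlap for Tnf, Il1rn and Cd14, each higher with anti-ITGAV, against 3.15% of all genes. On fibronectin only Nfkbiz did not overlap, against 2.42%. With coatings averaged no member passed, against 0.0711% of all genes. On fibronectin the Tnf level averaged 10.4 ± 1.21 CPM with anti-ITGAV, against 10.5 ± 0.809 CPM with IgG (SD, n = 4 each). On uncoated dishes the Tnf level averaged 5.96 ± 1.58 CPM with anti-ITGAV, against 4.38 ± 0.236 CPM with IgG (SD, n = 4 each). The test of the difference between the antibody effects on the 2 coatings called none of the 10 genes and 0% of all genes, and the smallest adjusted p among the 10 was 0.646.

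Divided by the deposited gene length, the levels spanned a wide range. That length was 12061 bases for Nfkb1, 3014 for Tlr2 and 1610 for Nfkbia. In CPM, Nfkb1 averaged 138, above Tlr2 at 98.2 and Nfkbia at 46.1, so the order of genes below depends on these lengths. Averaged over all libraries, Cd14 stood at 132 FPKM (fragments per kilobase scaled to library size, as deposited), higher than 98% of the genes tested, followed by Tlr2 at 32.1 FPKM and Nfkbia at 28.2 FPKM. Nfkb1 at 11.3 FPKM and Il1rn at 7.74 FPKM came next, then Tnf at 4.70 FPKM, Tnfaip3 at 3.18 FPKM and Nfkbiz at 1.88 FPKM. Il1b at 0.231 FPKM and Ptgs2 at 0.144 FPKM were lower than most genes tested, 13.4% and 8.53% of which lay below them. The order was not the same in every group. Il1rn averaged 11.8 ± 4.01 FPKM against 11.0 ± 0.619 FPKM for Nfkb1 on fibronectin with anti-ITGAV, where their ranges overlapped, and stood below Nfkb1 without overlap in the other 3 groups (SD, n = 4). Tlr2 and Nfkbia overlapped in every group. Tnf, Tnfaip3 and Nfkbiz were separate on fibronectin, with 6.28 ± 0.516, 3.58 ± 0.229 and 1.62 ± 0.204 FPKM under IgG. On uncoated dishes each overlapped its neighbour in the order, with 2.64 ± 0.155, 2.34 ± 0.239 and 2.00 ± 0.256 FPKM under IgG.

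The ratio of Tnf to Nfkbia levels, both in FPKM and set within each library, was 0.217 to 0.237 on fibronectin with anti-ITGAV and 0.187 to 0.229 on fibronectin with IgG. It was 0.108 to 0.147 on uncoated dishes with anti-ITGAV and 0.0861 to 0.115 on uncoated dishes with IgG. The coatings did not overlap, so Tnf and the main IkB gene changed unequally. Il1rn exceeded Il1b by 40.9- to 59.8-fold on fibronectin with anti-ITGAV and 36.9- to 138-fold on fibronectin with IgG. On uncoated dishes it did so by 19.2- to 42.95-fold with anti-ITGAV and 13.3- to 29.0-fold with IgG. These ratios rest on 3 to 28 Il1b counts per library, and the 138-fold value on 3 counts. The ratio of Il1rn to Tnf was 1.16 to 3.28 on fibronectin and 1.25 to 2.08 on uncoated dishes with anti-ITGAV, the highest being library 3 of fibronectin. With IgG it was lower on fibronectin without overlap, at 1.19 to 1.47 against 1.53 to 2.11 on uncoated dishes.

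**Figure D3:**
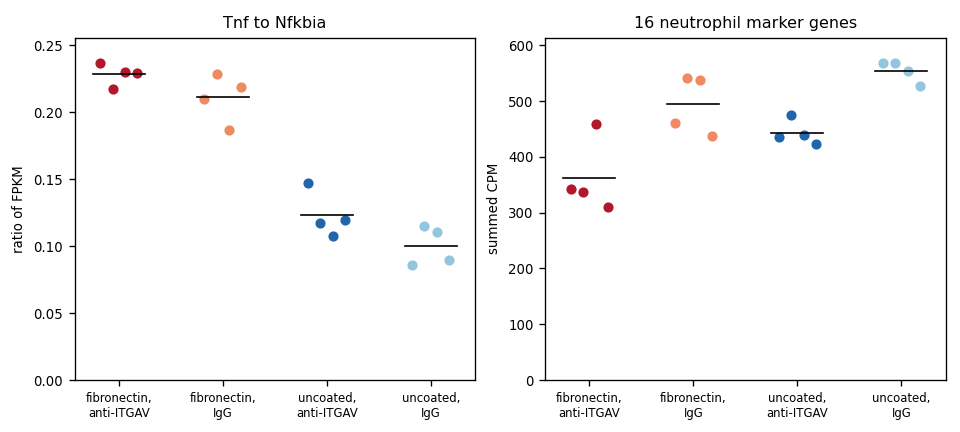
Left, ratio of Tnf to Nfkbia FPKM in each library (y axis, from 0); right, summed CPM of 16 neutrophil markers in each library. Lines are group means (n = 4). The ratio separates the coatings, with 0.187 or more on fibronectin and 0.147 or less on uncoated dishes, while the mean marker sum is highest on uncoated dishes with IgG.

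Marker genes of other blood and stromal cells moved with the coating as well. The summed level of 7 B lymphocyte markers was 29.8 to 36.9 CPM on fibronectin with anti-ITGAV and 31.1 to 44.9 CPM on fibronectin with IgG, against 69.4 to 79.9 CPM on uncoated dishes with anti-ITGAV and 60.9 to 78.0 CPM with IgG. For 8 mast cell and basophil markers the sums were 10.1 to 13.3, 15.2 to 19.3, 20.6 to 27.1 and 27.7 to 34.99 CPM in the same group order, with Cma1 at 0 on fibronectin with IgG. For 16 neutrophil markers they were 309.9 to 458, 438 to 541, 423 to 474 and 527 to 568 CPM, none of the markers being at 0 in any group. Of these 16 genes, 8 fell on fibronectin with the antibodies averaged, against 5.26% of all genes, 7 under anti-ITGAV, against 2.83%, and 0 under IgG, against 1.42%. With anti-ITGAV over IgG, 4 of them fell with the coatings averaged, among 11 genes called in all, and 2 on fibronectin, which were the 2 genes called there. For 8 fibroblast and stromal markers the sums were 5.97 to 8.94, 7.84 to 9.57, 11.1 to 14.03 and 12.8 to 15.8 CPM, with Lum at 0 throughout, and 6 monocyte markers overlapped between all groups at 213 to 371 CPM. The 6 T and NK cell markers stayed at or under 0.768 CPM, with Cd3e and Cd3g at 0 on fibronectin with anti-ITGAV and on uncoated dishes with IgG, Cd8a at 0 on fibronectin with IgG, and Cd3e at 0 on uncoated dishes with anti-ITGAV. All of these sums were lower on fibronectin or overlapped between the coatings. The part of these other cells in the levels of the 10 genes was not tested. Of the 12 macrophage markers, 2 fell on fibronectin with the antibodies averaged, against 5.26% of all genes, and 0 rose, against 6.58%. Under anti-ITGAV 1 of the 12 fell, against 2.83%, and under IgG 1 fell, against 1.42%.

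The rest of the pathway moved in both directions on fibronectin, and most of its genes did not pass the test. The counts that follow are for the coating with the antibodies averaged, where 6.58% of all genes tested rose and 5.26% fell. Among 29 genes for Toll-like, IL-1 and TNF receptors and their adaptors, 0 rose and 5 fell. Tlr9, the endosomal receptor for CpG DNA, had the largest change of them, with 15.2 ± 4.09 and 18.1 ± 4.72 CPM on fibronectin with anti-ITGAV and with IgG, against 32.3 ± 0.371 and 27.5 ± 4.51 CPM on uncoated dishes with the same antibodies (SD, n = 4 each). Its log2 fold change was -0.84 ± 0.13 (edgeR adjusted p = 0.000427). The TNF receptor gene Tnfrsf1b (-0.39 ± 0.08), the Tlr4 adaptor gene Ticam2 (-0.44 ± 0.08) and the kinase gene Irak4 (-0.27 ± 0.05) fell as well, in 27 of 27 alternatives each. Tlr5, named after its values were seen, fell by 0.34 on the log2 scale in a call kept in 14 of 27 alternatives.

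Of 19 other cytokine genes, 10 passed the filter and 1 rose, Tnfsf9, the gene for 4-1BB ligand. It averaged 4.48 ± 0.885 and 5.16 ± 0.564 CPM on fibronectin with anti-ITGAV and with IgG, against 2.42 ± 0.817 and 2.79 ± 0.133 CPM on uncoated dishes (SD, n = 4 each), a log2 fold change of 0.89 ± 0.16 (edgeR adjusted p = 0.00125). Csf1, Osm and Il18 had log2 values of -0.22, -0.28 and -0.12 and did not pass. The 9 cytokine genes under the filter, among them Il6 with 0 to 6 counts per library and Il12b with 0 to 8, were too rare for a test. A difference in these genes was not detectable at this depth.

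Of 11 genes for NF-kB subunits, IkB proteins and the IkB kinase, 0 rose and 1 fell. This was Bcl3, the gene for a nuclear IkB protein, at -0.50 ± 0.13 on the log2 scale (edgeR adjusted p = 0.0193), or an adjusted p of 0.052 without library 1 of uncoated dishes with IgG. Nfkb2 (-0.31), Relb (-0.36) and Chuk (0.24) did not pass. Among 21 other feedback inhibitors, 3 rose and 3 fell. Tnip3, the gene for an A20-binding protein, rose by 0.64 ± 0.10 on the log2 scale (edgeR adjusted p = 0.000532) and Dusp1, a phosphatase gene that ends MAP kinase signalling, by 0.33 ± 0.08. Il1rl1, the gene for the IL-33 receptor, rose by 0.55 ± 0.17 in a call kept in 12 of 25 alternatives. Zfp36, the gene for the mRNA-destabilizing protein tristetraprolin, fell by 0.32 on the log2 scale (edgeR adjusted p = 0.00491), as did Trafd1 and, in 13 of 27 alternatives, Zfp36l1, which were named after their values were seen.

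Among 25 other NF-kB target genes tested, 5 rose and 5 fell. The chemokine gene Ccl4 rose most, with 19.9 ± 1.67 and 17.97 ± 1.43 CPM on fibronectin with anti-ITGAV and with IgG, against 10.7 ± 1.40 and 8.93 ± 0.812 CPM on uncoated dishes (SD, n = 4 each). Its log2 fold change of 0.95 ± 0.08 (edgeR adjusted p = 1.44e-06) was close to that of Tnf. Cd40, a costimulatory receptor gene, rose by 0.35 ± 0.08, and Ccl3, Acod1 and Traf1, named after their values were seen, also rose, Traf1 in 16 of 25 alternatives. The anti-apoptotic gene Birc3 fell by 0.46 and the stress-response gene Gadd45b by 0.56 on the log2 scale. Tnfaip2, Cd83 and Ier3, named after their values were seen, fell too. Of 12 prostaglandin genes tested, 1 rose: Pla2g4a, the gene for the cytosolic phospholipase that releases arachidonic acid, by 0.82 ± 0.16 (edgeR adjusted p = 0.00272). Ptges (0.55), Ptges3 (0.27) and Hpgd (-0.29) did not pass. Of 10 inflammasome and IL-1 beta processing genes, 0 rose and 2 fell, Il18bp (-0.32 ± 0.09) and the pyrin gene Mefv (-0.85 ± 0.26). Mefv kept its call in 14 of 25 alternatives. With a replicate block both missed the threshold (edgeR adjusted p = 0.0502 for Il18bp and 0.0678 for Mefv). Nlrp3 at 0.22 and Casp1 at 0.17 did not pass. In the antibody comparisons and in the test of their difference no gene of these lists passed.

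Median log2 fold changes of the tested list genes were -0.07 for receptors and adaptors, -0.11 for the other cytokines, -0.12 for subunits and IkB proteins and -0.01 for the feedback inhibitors. They were 0.16 for the NF-kB targets, 0.19 for the prostaglandin genes and -0.06 for the inflammasome genes, against 0.0036 over all genes. Within single antibodies fewer of these genes passed. Of the receptor and adaptor genes, 4 fell under anti-ITGAV and 1 under IgG. Of the NF-kB targets, 2 rose and 4 fell under anti-ITGAV while 3 rose and 1 fell under IgG. Of all genes tested, 2.84% rose and 2.83% fell under anti-ITGAV, and 2.37% rose and 1.42% fell under IgG. Without library 3 of fibronectin with anti-ITGAV, 8.91% of all genes rose and 6.75% fell in the averaged comparison, which had 1 gene up and 5 down among receptors and adaptors, 1 and 0 among the other cytokines, 1 and 1 among subunits and IkB proteins and 3 and 5 among the feedback inhibitors. It had 5 and 5 among the NF-kB targets, 3 and 1 among the prostaglandin genes and 1 and 2 among the inflammasome genes.

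**Figure D4:**
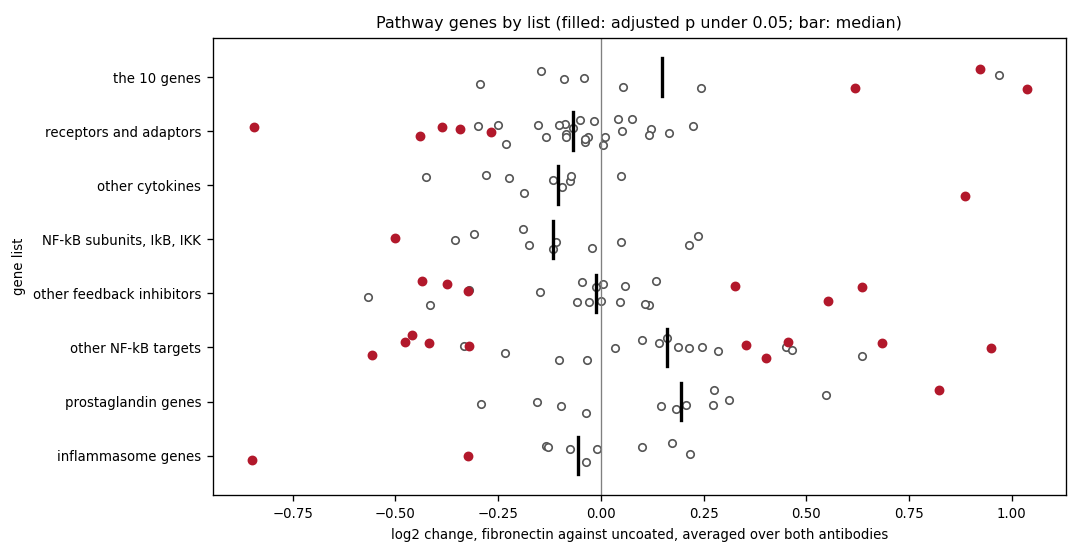
Log2 fold change for fibronectin over uncoated, averaged over both antibodies (x axis), of each tested gene in the 10-gene set and 7 pathway lists (rows). Filled points have an edgeR adjusted p under 0.05 and the vertical bar is the list's median. The feedback inhibitor list has 3 filled points on each side of 0 and the NF-kB target list 5 on each side, while all 5 of the receptor list lie below 0.

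Across the 16 libraries, the genes whose log2 CPM was most like that of Tnf, among 10899 genes averaging at least 1 CPM, were Ccl4 (Pearson r = 0.96), Nes (0.95) and Cdk18 (0.95). For Il1rn they were Cd9 (0.96), Tnfrsf23 (0.94) and Slc25a13 (0.94), and for Tnfaip3 Jag1 (0.94), Tnfrsf11a (0.94) and Ccl4 (0.94). The likeness of these holds the step between coatings that all of them share. Within the 10 genes, Tnf and Tnfaip3 had r = 0.93, and 0.61 once each group's mean was taken out. Tnf and Il1rn had r = 0.79, and -0.21 with the group means out. Cd14 and Nfkb1 had r = 0.58, and 0.93 with the group means out. For Cd14 the most similar genes were Bag3 (0.91), Dgkd (0.90) and Lrrc75a (0.90). These values describe 16 libraries that also share depth and base-composition differences, and no test was made of them.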

How the data were processed

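PolyA RNA gave 16 paired-end NovaSeq X Plus libraries in 4 groups, per the labels. The authors deposited whole-number gene counts, together with FPKM values of each gene in each library. The submitters' processing notes name HISAT2, StringTie and featureCounts, with mm10 and GRCm38.p6 as builds. The strand setting is not given in the sources used here.

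Groups came from the coating and treatment labels. Counts were fitted for all 16 libraries with 1 mean per group by edgeR 4.0.16's quasi-likelihood test in R 4.3.3, with TMM factors. Genes were kept by edgeR's default filter (a minimum count of 10), which left 15469 of 54532, and p-values were adjusted by Benjamini-Hochberg over these, with a threshold of 0.05. The test was checked on simulated data. No group held a library deposited in duplicate, since pairs of replicates differed by a chi-square of 5.11 to 182 per degree of freedom.

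DESeq2 1.42.0, other scalings and filters, fits of the contrast alone, a replicate block, limma 3.58.1 on log2(FPKM + 1) and log2(FPKM + 0.1), voom with quality weights, and leaving out each library were tried as alternatives. An offset for GC content was added after seeing the data. CPM values use the TMM-scaled library sizes, and 95% intervals use the t distribution with the edgeR fit's degrees of freedom.

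The 10 genes and all lists were chosen with earlier results of these data known. Up to 4 genes per pathway list were named by smallest adjusted p in any of the 4 comparisons of single groups, and other genes are said to be named after their values were seen. Likeness was Pearson's r of log2 CPM.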

Additional observations from a re-analysis of the deposited data

Results flagged for a closer look

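Of 40 groups of 4 libraries examined, 1 for each of the 10 genes in each group, 1 held a library far from the other 3. Tnf stood at 11.7 CPM in library 2 of fibronectin with IgG, against 10.07 to 10.12 CPM in the others of that group, and the gap made up 0.970 of the group's range. The critical value used marks about 1 in 20 groups by chance. All 4 values lay above every uncoated library, so the order of the coatings was the same with or without it.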

How the results depend on the processing

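The rises of Tnf and Tnfaip3 under IgG and of Tnfaip3 under anti-ITGAV were called in 28 of 28 alternatives, and the others of Tnf and Il1rn in 26 or 27 of 28. Of 1885 per-gene values under alternatives, 1775 kept direction and call, 4 lost a call, 20 gained one and 86 changed sign. The 17 results that changed sign had log2 values no larger than 0.124. Where no value below shows otherwise, the cause was not tested. Low counts limit Il1b and Ptgs2.

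Signs changed as follows, in log2 values. With DESeq2, Tnf for the antibody on fibronectin came to 0.00102, Nfkbia for the antibody averaged to 0.00211 and the Tnfaip3 interaction to 0.00442. With DESeq2's size factors in edgeR these were 0.00153, 0.00229 and 0.00481, and Il1b for the antibody on uncoated dishes was -0.000883. Upper quartile factors gave Nfkbiz -0.0260 for coating under anti-ITGAV and Nfkbia 0.0125 for the antibody averaged. Without a filter that Nfkbiz value was -0.00468, and with the contrast's libraries alone -0.00616, where Il1b for the antibody on uncoated dishes was -0.0113. A minimum of 1 CPM gave Nfkbia 0.00046 for the antibody averaged. On log2(FPKM + 1) the Tnfaip3 interaction was 0.0228 with and without a filter, and 0.0136 with 0.1 added. Unfiltered, Il1b for the antibody on uncoated dishes was -2.1e-05.

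Voom with quality weights gave Tnf 0.107, Nfkb1 0.0274 and Nfkbia 0.00359 for the antibody on fibronectin, Nfkbia 0.0971 for the antibody averaged and Il1rn -0.116 for the interaction. It called 5 members for coating averaged, 2 for the antibody averaged (Cd14 and Il1rn) and 1 on uncoated dishes, beside 26.7%, 0.698% and 0.705% of all genes. With the GC offset, chosen after seeing the data, Tnf was 0.0616 for the antibody on fibronectin, Nfkbia 0.0356 for coating under anti-ITGAV and 0.0187 for the antibody averaged, and the Il1rn interaction was -0.351. It called 5 members for coating averaged and 1 for the antibody averaged (Cd14), beside 21.1% and 0.278% of all genes. Over all genes, DESeq2 called 1601 for coating under anti-ITGAV and 1040 under IgG, against 876 and 586 in edgeR.

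Leaving out each library in turn, members called ran from 3 to 5 for coating averaged and from 0 to 1 for the antibody averaged, beside 8.31% to 15.7% and 0.0254% to 0.14% of all genes. Log2 values for coating under anti-ITGAV ran from -0.00891 to 0.195 for Cd14, -0.387 to 0.0811 for Il1b, -0.161 to 0.00891 for Nfkbia and -0.0845 to 0.133 for Nfkbiz. Under IgG they ran from -0.0144 to 0.0443 for Nfkb1 and -0.111 to 0.0321 for Tlr2. For the antibody on uncoated dishes they ran from -0.137 to 0.227 for Il1b and -0.165 to 0.0548 for Nfkbiz, and on fibronectin from -0.242 to 0.115 for Ptgs2, -0.0147 to 0.112 for Tlr2 and -0.0555 to 0.0677 for Tnf. Averaged, they ran from -0.00193 to 0.0384 for Nfkb1 and -0.0358 to 0.0444 for Nfkbia. Interactions ran from -0.134 to 0.271 for Il1rn and -0.0963 to 0.0771 for Tnfaip3.

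The sources used here do not say whether the replicate numbers pair the samples. Deviations from group means correlated at -0.30 to 0.28 in 24 same-number pairs and at -0.34 to 0.31 in 72 others. Of 16 libraries, 5 correlated best with their own number. Since the libraries also differ in base composition, these correlations cannot decide whether the numbers mark pairs. With a replicate block 3 members were called in each coating comparison. Of all genes, 3.88% were called under anti-ITGAV, 2.33% under IgG and 9.82% with the antibodies averaged. In each antibody comparison 0 members were called, against 0.0194% of all genes on fibronectin, 0% on uncoated dishes and 0.0517% averaged. With the block, Tnf under IgG had a log2 fold change of 1.26 (edgeR adjusted p = 0.00109). Il1b for the antibody on uncoated dishes came to -0.0351. Over all genes 360.0 were called for coating under IgG with the block, against 586 without it.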
